A study of Mus musculus with 18 samples.

Results

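The 3 pooled RAD21 peak lists of mouse splenic B cells held 13578 sites, and 734 of them (5.41%) lay in 231 dense clusters, here called chains. The members were selected on measured peak positions. Pooled peaks sharing at least 1 bp were merged into sites, sites found only in the pooled 48 h list (2127 of 15705) were left out, and neighbouring sites whose centres lay at most 10 kb apart were joined. Joined runs of 3 or more sites were kept. The remaining sites were 2500 in 1250 pairs and 10344 single sites. Which pooled lists hold a chain, and how far apart its sites lie, are therefore values that chose the members and are given as descriptions without a test.

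RAD21 was mapped by chromatin immunoprecipitation and sequencing in resting B cells (0 h) and in B cells cultured for 48 h or 96 h with 50 µg/ml LPS and 2 ng/ml IL-4, a mixture that drives class switching to IgG1. All cells came from spleens of wild-type C57BL/6 mice (given as C57BL/6J in the methods) aged 8 to 10 weeks, and each time point had 3 biological replicates, each with purified B cells of 12 mice mixed together. Each replicate is thus an average over animals, and no group carried a transgene or a deletion. The cells of the 96 h group were enriched for IgG1-positive cells before the immunoprecipitation, so time in culture and this enrichment cannot be told apart. Peak lists hold no expression values, and the B cell label could not be checked against marker genes.

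RAD21 is the kleisin subunit that closes the cohesin ring. Cohesin holds sister chromatids together and extrudes loops of chromatin, and in interphase it is halted mainly at sites bound by the zinc-finger protein CTCF. The CTCF motif is not symmetric, and loops form most often between motifs that point towards each other, so the direction of each motif matters at a run of neighbouring sites. The immunoglobulin heavy chain locus (Igh) has a cluster of CTCF sites downstream of its constant genes, beyond the 3′ enhancers that act on class switching.

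The motif found at these sites is shown first for the chain with the most sites among those in non-repeated sequence. It lay on chromosome 12 between Tmem121 and the Igh constant genes. Capitals mark the best 20-base match to the CTCF-like motif learned from the RAD21 sites, with 20 bases on either side, read 5′ to 3′ on the strand of the motif, from the mm9 genome. The 7 matches of this chain are shown because all of them lay on the plus strand.
Chromosome 12 chain site 1, chr12:114454308-114454367, plus strand: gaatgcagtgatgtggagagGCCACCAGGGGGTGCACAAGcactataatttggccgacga
Chromosome 12 chain site 2, chr12:114456276-114456335, plus strand: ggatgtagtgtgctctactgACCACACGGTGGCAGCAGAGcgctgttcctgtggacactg
Chromosome 12 chain site 3, chr12:114458243-114458302, plus strand: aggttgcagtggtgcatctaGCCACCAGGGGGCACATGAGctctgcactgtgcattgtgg
Chromosome 12 chain site 4, chr12:114458876-114458935, plus strand: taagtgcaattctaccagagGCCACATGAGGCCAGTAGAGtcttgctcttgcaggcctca
Chromosome 12 chain site 5, chr12:114459598-114459657, plus strand: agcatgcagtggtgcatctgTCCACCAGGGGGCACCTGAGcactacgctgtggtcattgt
Chromosome 12 chain site 7, chr12:114461143-114461202, plus strand: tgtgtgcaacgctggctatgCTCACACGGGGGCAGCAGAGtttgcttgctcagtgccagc
Chromosome 12 chain site 8, chr12:114462586-114462645, plus strand: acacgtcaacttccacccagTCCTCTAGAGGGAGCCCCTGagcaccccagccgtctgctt

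The same motif is shown for the site with the most replicate peaks in chains that the text returns to. They are given because they carry matches of different strength and, at Etv3 and Prkcb, the opposite direction. At Etv3, sites 1 and 3 tied with 8 replicates each. Site 3, not shown, had the stronger match (24.4 against 20.7 log2 odds), on the plus strand.
Foxo1 chain site 3, chr3:52066485-52066544, plus strand: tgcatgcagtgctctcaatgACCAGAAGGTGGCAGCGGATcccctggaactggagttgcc
Etv3 chain site 1, chr3:87303204-87303263, minus strand: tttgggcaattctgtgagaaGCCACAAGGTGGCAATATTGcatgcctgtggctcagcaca
Gm20388 chain site 2, chr8:123204478-123204537, plus strand: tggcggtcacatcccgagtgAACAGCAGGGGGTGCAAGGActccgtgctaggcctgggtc
Bcl6 4-site chain site 4, chr16:23991388-23991447, plus strand: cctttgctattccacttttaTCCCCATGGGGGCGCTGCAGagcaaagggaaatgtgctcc
Prkcb chain site 1, chr7:129603260-129603319, minus strand: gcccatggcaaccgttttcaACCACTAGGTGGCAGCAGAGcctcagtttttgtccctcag
Spns3 chain site 3, chr11:72387473-72387532, plus strand: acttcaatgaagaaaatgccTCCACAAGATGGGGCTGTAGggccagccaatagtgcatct
Sypl chain site 1, chr12:33595079-33595138, plus strand: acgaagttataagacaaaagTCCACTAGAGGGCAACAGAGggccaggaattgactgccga

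Most chains were short. There were 201 chains of 3 sites, 27 of 4 sites, 1 of 7 sites and 2 of 8 sites. Chains spanned 1325 to 25473 bp, with a median of 9693 bp. The 503 distances between neighbouring centres within chains had a median of 4175.5 bp, and 57 of them (11.3%) were under 1 kb. Across all sites the median distance between neighbours was 69893.5 bp. Sites in chains were as wide as others, with medians of 225 bp in chains, 223 bp in pairs and 218 bp for single sites.

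The limit of 10 kb did not fall in a gap of the distances. Over all sites, 150 neighbouring distances lay between 9 and 10 kb and 122 between 10 and 11 kb. The longest distance kept within a chain was 9962.5 bp, and the shortest one just outside the limit was 10004.5 bp. In 33 chains the longest distance lay within 1 kb of the limit. A limit of 9 kb left 636 sites in 199 chains, and one of 11 kb gave 819 sites in 256 chains.

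Chains were found on every autosome, with 3 on chromosome 18 and 18 each on chromosomes 10 and 11. Between 2.28% and 7.87% of the sites of an autosome lay in chains. Chromosome X had none among its 262 sites, of which 44 were in pairs. It also carried fewer sites for its length, 1.57 per Mb against 3.98 to 8.79 on the autosomes.

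Chromosome Y stood apart. Of its 24 sites, 19 lay in 3 chains of 4, 7 and 8 sites, within chr Y positions 2787233 to 2897647 (mm9). These sites lay in repeated sequence, since on average 32.6% of their 32-base words occurred once in the genome, against 97.0% for the other chain sites. A motif match was found at 1 of the 19 sites, and their median GC content was 32.5% against 50.5% at the other chain sites. In the pooled lists 12 of the 19 were present only in resting cells. On the autosomes 2 chains also had under 50% of their words once. They were 3 sites near Fndc1 on chromosome 17 (0%) and 3 sites on chromosome 16 (21.5%). Some values below are given with and without chromosome Y, and the others include it.

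Most chains took their shape from the pooled 96 h list. At 96 h, 194 chains (84.0%) had 3 or more of their sites in the pooled list, compared with 31 (13.4%) in resting cells and 8 (3.46%) at 48 h. The lists differ in length, with 12806 peaks at 96 h, 5690 in resting cells and 5579 at 48 h. When each list was taken alone and limited to its 5579 highest-scoring peaks, 91 resting peaks, 105 peaks at 48 h and 69 peaks at 96 h fell in chains of their own. At equal length the 96 h list thus had the fewest peaks in chains, and the greater number at 96 h was seen only with the longer list. The count of 105 at 48 h came from the whole pooled 48 h list, with the 2127 sites that the rule left out. Of those sites, 39 lay in chains among themselves, and all 39 had a peak in 48 h replicate 2. The 48 h count therefore includes peaks that could not enter the chains described here.

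Single replicates held few whole chains. At least 3 sites of a chain were called in 1, 0 and 9 chains in the resting replicates 1, 2 and 3. The 48 h replicates gave 0, 0 and 4 chains. The 96 h replicates gave 5, 18 and 66 chains. The 96 h replicates were all above 2 of the 3 resting replicates, and the resting and 96 h ranges overlapped. At least 1 site was called in 45 to 145 of the 231 chains in resting replicates, in 17 to 76 at 48 h and in 118 to 214 at 96 h. The lists ran from 821 peaks in resting replicate 2 to 8579 in 96 h replicate 3, and the lowest count, 17 chains, came from 48 h replicate 2 with 5254 peaks. Without the peaks that only 96 h replicate 3 supported, the rule gave 444 sites in place of 734.

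**Figure D1:**
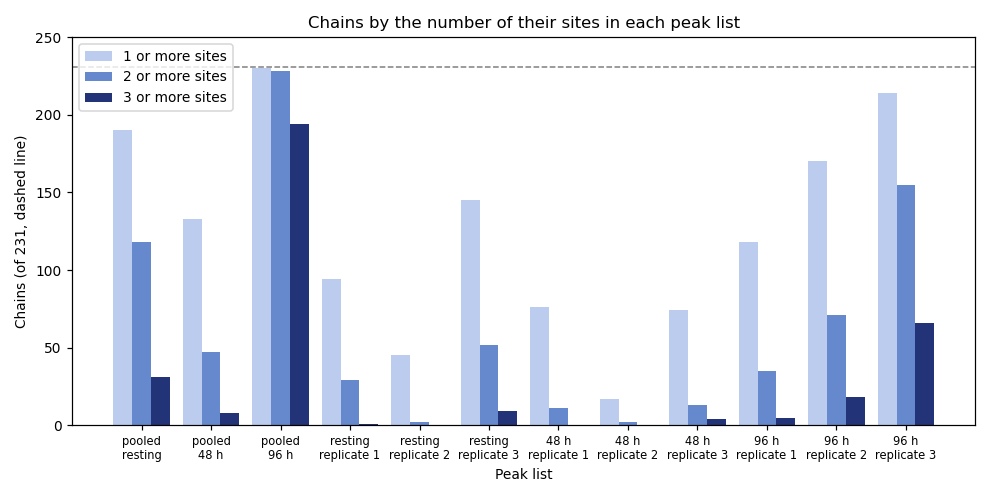
Number of chains (y axis, of 231) with 1 or more, 2 or more and 3 or more of their sites in each pooled or replicate peak list (x axis). The pooled 96 h list stands highest with 194 chains at 3 or more sites, and no single replicate passes 66.

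Site by site, chain members were called about as often as other sites of the same replicate. Among resting replicates 1, 2 and 3, a peak was present at 17.0%, 6.40% and 28.2% of chain sites. At 48 h the shares were 11.9%, 2.59% and 12.5%. At 96 h they were 21.5%, 35.4% and 59.8%. The means were 17.2% ± 10.9 in resting cells, 8.99% ± 5.56 at 48 h and 38.9% ± 19.4 at 96 h (SD, n = 3 each). The resting range overlapped both others, whereas every 96 h replicate was above every 48 h replicate. When the replicate lists were cut to 821 peaks each by score, the means were 6.77% in resting cells, 4.27% at 48 h and 6.72% at 96 h. The 96 h mean was then no longer above that of resting cells. With the same number of peaks in every list, these shares had little room to differ. They therefore cannot show whether the 96 h excess went beyond list length.

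The difference between chain and single sites was small next to the spread between replicates. Chain sites exceeded single sites by 2.31, 0.661 and 3.34 percentage points in resting replicates 1, 2 and 3. The difference was 1.15, -2.62 and 1.75 points at 48 h, and 1.18, 2.51 and -0.554 points at 96 h. It was positive in 7 of 9 replicates. The lowest value belonged to 48 h replicate 2, a list that stood apart from the others. Only 12.8% of its 5254 peaks overlapped any of the 13578 sites, whereas the other 8 lists had 96.3% to 99.9% of their peaks there. Without it the 48 h mean for chain sites was 12.2%.

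**Figure D2:**
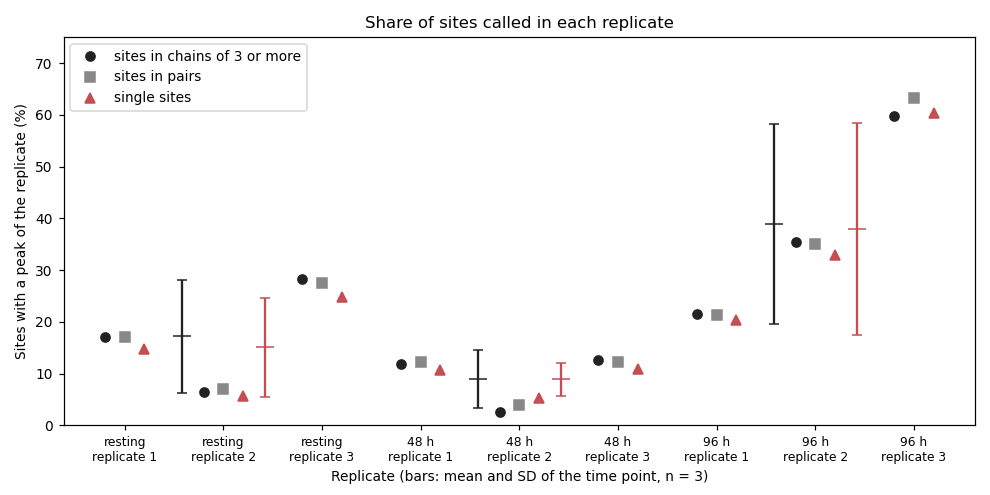
Share of sites with a peak (y axis, %) in each of the 9 replicates (x axis) for sites in chains, in pairs and alone, with the mean and SD of each time point (n = 3) for chain and single sites. The 3 kinds of site move together from replicate to replicate, from 2.59% to 59.8% for chain sites.

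Support was uneven along a chain. Over the 734 chain sites, 183 (24.9%) had no peak in any replicate, 213 had a peak in 1 replicate and 61 (8.31%) in 6 or more. Among single sites 25.9% had no replicate peak and 6.53% had 6 or more. The best supported site of a chain had a median of 3 replicates and the weakest a median of 0. In 130 chains (56.3%) at least 1 site was called in no replicate, so that it was present in a pooled list only. In 53 chains a site was called in 6 or more replicates, and in 24 of these another site of the same chain was called in none. No chain had 3 sites called in 6 or more replicates each, while 101 chains (43.7%) had a replicate peak at every site.

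**Figure D3:**
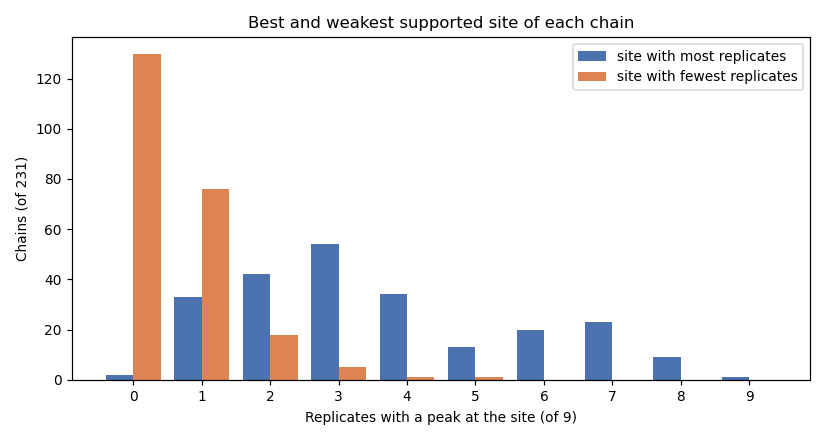
Number of chains (y axis, of 231) by the count of replicates (x axis, of 9) with a peak at the best supported site and at the weakest supported site of the chain. The weakest site had no replicate peak in 130 chains, and the best site was called in 3 or more replicates in 154.

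The sites of a chain often differed in time of appearance. Of the 734 chain sites, 346 (47.1%) were in the pooled 96 h list only, 150 in the resting and 96 h lists, 141 (19.2%) in all 3, 49 in the resting list only, 40 in the 48 h and 96 h lists and 8 in the resting and 48 h lists. Without chromosome Y, 37 of 715 chain sites were in the resting list only. Single sites had 52.6% at 96 h only and 17.0% in all 3. All sites belonged to the same class in 32 chains (13.9%), and 27 of these were made up of sites present only at 96 h. In 82 chains (35.5%) a site shared by all 3 time points lay beside a site present at 96 h only. Neighbouring sites in chains were of the same class in 34.4% of 503 cases, compared with 36.6% of 6494 neighbours lying 10 to 100 kb apart. The share of equal classes was not higher within chains than at this wider spacing.

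Chain sites that separated the time points in every replicate were few. There were 32 sites (4.36% of 734) with a peak in all 3 replicates at 96 h and in none of the resting replicates, beside 4.43% of all 13578 sites. No chain site had the opposite pattern, for which the share over all sites was 0.0663%. Between 96 h and 48 h, 44 chain sites were called in all replicates at 96 h and none at 48 h, 5.99% beside 6.1% over all sites, and 0 had the opposite pattern, beside 0.0221%. Between resting cells and 48 h, 7 chain sites were called only in the resting replicates, 0.954% beside 0.928%, and 0 only in the 48 h replicates, beside 0.0442%. Each share in chains was close to the share over all sites. Without chromosome Y the counts of 32 and 44 were 31 and 43. The counts themselves moved with the lists used. With replicate lists of equal length the 32 sites became 5, their opposite pattern rose from 0 to 3, the 44 became 5 and the 7 became 1, whereas without 96 h replicate 1 the 32 became 90 and the 44 became 123, and without resting replicate 2 the 7 became 34. The chains were chosen from pooled lists of the same reads, so these counts are descriptions.

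The 32 sites called at 96 h and not in resting replicates were spread over 31 chains, and every one had a motif match. Of these sites 22 were intergenic, 7 intronic, 2 in promoters and 1 in a 3′ UTR, and 14 were nevertheless in the pooled resting list. One chain on chromosome 15 held 2 of them, 83801 and 86215 bp from the nearest start, that of Ywhaz, which encodes a 14-3-3 adaptor protein. Among the others were sites in introns of Iqsec1, Ido2, Dgkg, Qprt and Pebp4. In no chain did all the sites switch together in this way. The 7 sites called in every resting replicate and in no 48 h replicate included sites near Plk3, Cyth4 and Ms4a7 and an intron of Fam83f, and 4 of the 7 were called again in all 96 h replicates.

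Peak scores of chain sites were set against those of other sites within each list. Each replicate's scores were turned into percentiles of its own list, and the median of chain sites was set against that of all other sites. In resting replicates 1, 2 and 3 chain sites minus other sites gave 5.48, -4.87 and -2.56 percentile points. At 48 h the difference was -6.18, -13.9 and -10.8 points, below 0 in all 3 replicates. At 96 h it was 0, 3.47 and 3.89 points. The mean over the 9 replicates was -2.83 ± 6.75 percentile points (SD, n = 9), and a difference from 0 was not detected (exact two-sided sign-flip test, p = 0.25, the smallest possible being 0.00391). The value was -2.09 (exact p = 0.312) without chromosome Y. This mean covers time points that went opposite ways, with -0.648 points in resting cells, -10.3 at 48 h and 2.45 at 96 h. An exact permutation test of F between them gave F = 8.07 (p = 0.0214). Without 48 h replicate 2 that test gave F = 4.65 (exact p = 0.0857). The chains were chosen from pooled lists of the same reads, mostly through the 96 h list, and sites found only at 48 h were left out. The F test therefore cannot tell a difference between time points from this choice of members.

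Chains built anew from single lists at equal length were rare at every time point. With each replicate limited to its 821 highest-scoring peaks, 3, 0 and 3 peaks of the resting replicates fell in chains of 3 or more. At 48 h the counts were 0, 5 and 3 peaks, the 5 being from replicate 2, and at 96 h they were 0 in all 3 replicates. The means were 0.244% ± 0.211, 0.325% ± 0.307 and 0% (SD, n = 3). No difference between time points was detected (exact permutation test of F over 1680 arrangements, p = 0.357). Pairwise, 96 h against resting and 96 h against 48 h each gave p = 0.4 (0.6 after Benjamini-Hochberg adjustment over the 3 comparisons) and 48 h against resting p = 1 in exact two-sided permutation tests, which cannot go below p = 0.1 with 3 replicates each. With full lists, 12, 0 and 40 resting peaks, 0, 133 and 13 peaks at 48 h and 15, 55 and 215 peaks at 96 h lay in such chains.

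Most chain sites were intergenic. By the position of their centres, 405 chain sites (55.2%) were intergenic, 217 (29.6%) intronic, 74 (10.1%) in promoters within 3 kb upstream of a protein-coding transcript, 17 in coding exons, 12 in 3′ UTRs and 9 in 5′ UTRs. Introns took 36.7% of single sites and intergenic sequence 49.5%. Without chromosome Y, 54.0% of chain sites were intergenic and 30.3% intronic. The median distance from a chain site to the nearest protein-coding start was 16464.5 bp, compared with 15952.5 bp in pairs and 19411 bp for single sites. A median of 3 protein-coding genes started within 100 kb of chain sites and of single sites alike, with means of 4.21 and 3.40. GC content over 200 bases had a median of 50% at chain sites and 48.5% at single sites.

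The CTCF-like motif was found in chains at nearly the share seen elsewhere once chromosome Y was set aside. It was matched at 628 chain sites (85.6%), or at 627 of 715 (87.7%) without chromosome Y, beside 89.4% of sites in pairs and 88.6% of single sites. Windows 1 kb away matched in 7.08% of cases for chain sites and 5% over all sites. On chromosomes not used to learn the motif the shares were 87.6% in chains without chromosome Y and 88.0% at single sites. A match was present at every site in 160 chains and at no site in 5.

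Within chains, as within pairs, the motifs rarely faced each other. Of 382 neighbouring pairs in chains with a match at both sites, 245 (64.1%) had the same direction, 113 (29.6%) pointed away from each other, with the reverse motif first, and 24 (6.28%) pointed towards each other. Neighbours in pairs, which also lie within 10 kb, were similar. Of 1011 with a match at both sites, 59.9% had the same direction, 34.2% pointed away and 5.84% pointed towards each other. Among 4041 neighbours over 100 kb apart, 42.6% had the same direction, 20.9% pointed away and 36.6% pointed towards each other. The share facing each other was 5.26% under 1 kb and 7.45% from 5 to 10 kb in chains, and over all sites it rose from 10.1% at 10 to 20 kb to 37.8% over 200 kb. The same direction was most frequent at the shortest distances, at 78.9% under 1 kb and 53.4% from 5 to 10 kb in chains. The rule used positions but no sequence, and the shares are given without a test since neighbours in a chain share sites.

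In 146 chains of 3 sites all 3 had a match. In 53 of them (36.3%) all motifs had 1 direction, 24 on the plus strand and 29 on the minus strand. In 74 (50.7%) the reverse motifs came first and the forward motifs after, so that the outer motifs pointed out of the chain. The converse order, with the outer motifs pointing into the chain, was present in 4 (2.74%), and 15 alternated. Matches at neighbouring sites were mostly not copies of each other. Neighbours in chains shared a median of 12 of 20 bases, beside 11 for neighbours over 100 kb apart. Of the 382, 6 shared 18 or more bases and 2 were identical. Sites of a chain that were not neighbours were not compared. In the chromosome 12 chain, the printed matches of sites 3 and 5, with site 4 between them, were nearly the same.

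**Figure D4:**
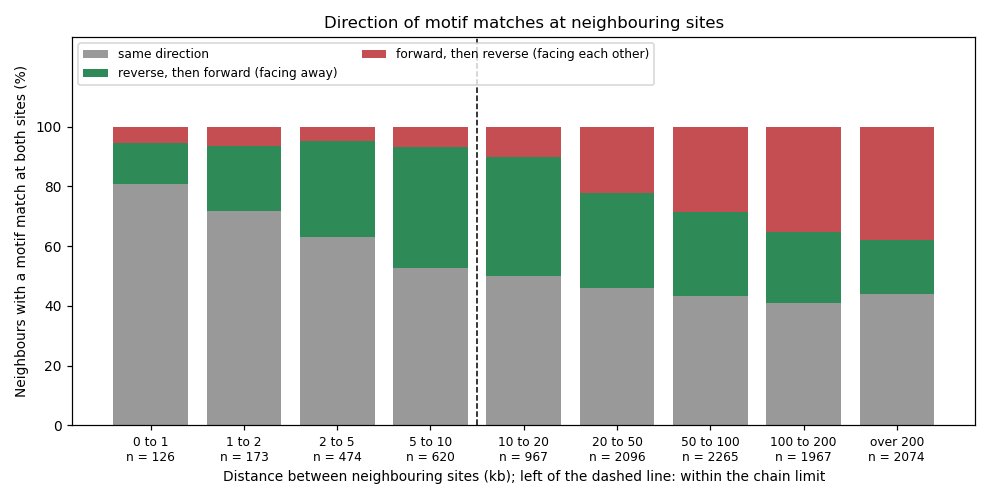
Share of neighbouring sites with a motif match at both (y axis, %) that had the same direction, pointed away from each other or faced each other, by the distance between their centres (x axis, kb) over all sites, with the number of neighbours under each bar. Left of the dashed line, within 10 kb, at most 6.77% faced each other, and over 200 kb 37.8% did.

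The chain on chromosome 12 with 8 sites (positions 114454213 to 114462762) lay 26481 bp beyond the end of Tmem121 and 46721 bp from Gm900, the nearest annotated immunoglobulin constant gene. The study reported frequent cohesin binding downstream of the Igh constant genes, the side on which this chain lies. Those sites were not matched to the chain here. All 32-base words of the chain occurred once in the genome. In resting replicates 1, 2 and 3, 4, 0 and 4 of its sites were called. At 48 h the counts were 2, 0 and 4, and at 96 h they were 2, 3 and 5. The groups overlapped throughout. The pooled lists held 4 sites in resting cells, 4 at 48 h and 8 at 96 h. Its neighbouring centres lay 584.5 to 1990.5 bp apart, closer than the median of all chains. Site 6 was called in 7 replicates and site 4 in 6, and site 3, whose sequence carries a match of 20.6 log2 odds, in none. Site 6 was the only one without a match within 100 bp of its centre, and it was 554 bp wide. As the sequences above show, the other 7 matches all ran on the plus strand.

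**Figure D5:**
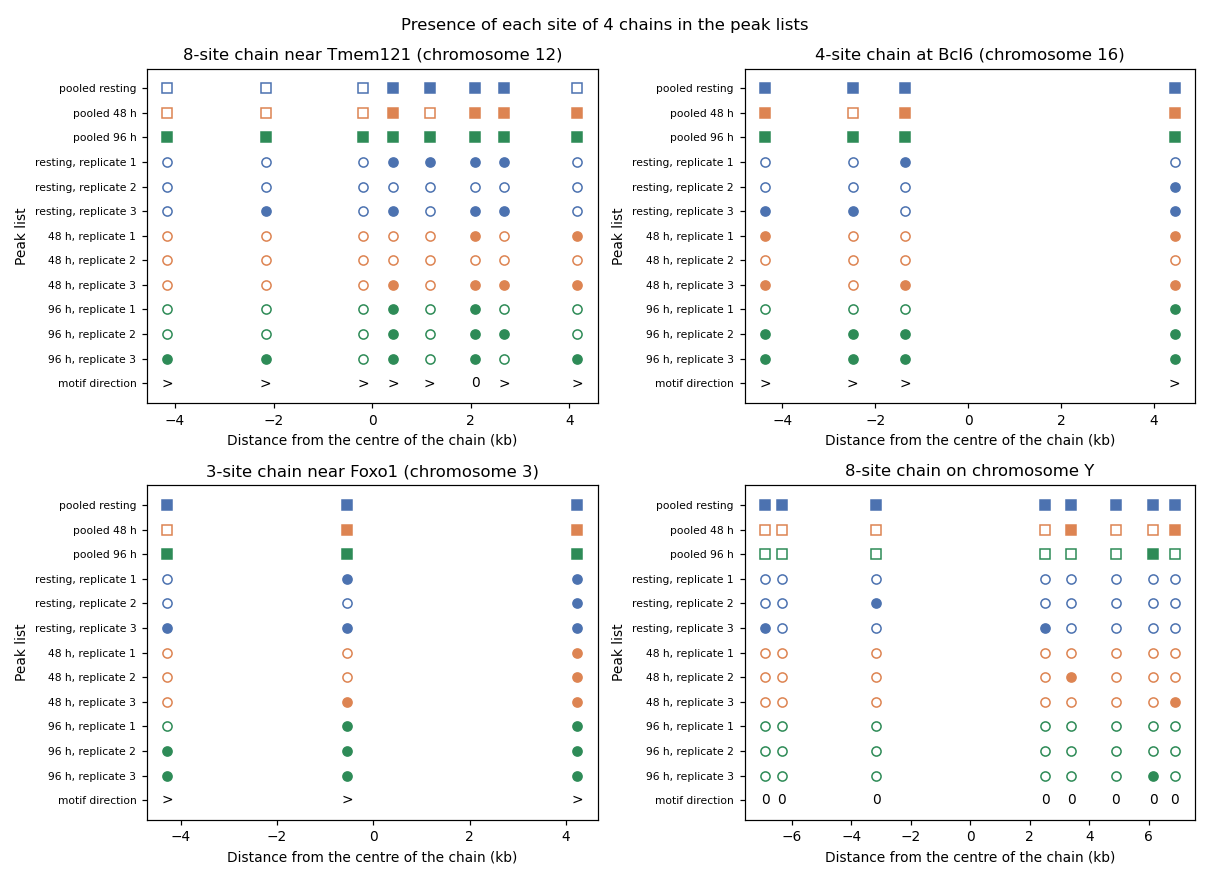
Sites of 4 chains placed by distance from the centre of the chain (x axis, kb), with a filled mark where a pooled list (squares) or a replicate list (circles) has a peak, and the motif direction below (> plus strand, < minus strand, 0 no match). The chromosome 12 chain had 4 to 8 sites per pooled list, and the chromosome Y chain had 8 in the resting list, 2 at 48 h and 1 at 96 h.

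The best supported chains had 3 sites each. The first lay in an intron of Gm20388 on chromosome 8 (123202382 to 123207836), 12919 bp from the start of Cox4i1, which encodes a subunit of cytochrome c oxidase. In this chain 2, 1 and 2 sites were called in the resting replicates, 2, 0 and 3 at 48 h and 3 in each 96 h replicate, a mean of 6.33 replicates per site. The 96 h values lay above all resting values. The second lay upstream of Foxo1, a transcription factor needed for B cell development and for class switching, on chromosome 3 (52057911 to 52066701). Its resting replicates had 2, 1 and 3 sites, its 48 h replicates 1, 1 and 2 and its 96 h replicates 2, 3 and 3. Its site 3, 5719 bp from the Foxo1 start, was the only chain site called in all 9 replicates. Chains near Etv3 and over Fam83f came next with the same mean of 5.67 replicates per site. The former lay upstream of Etv3, an ETS-family repressor, on chromosome 3, with 2, 2 and 2 sites in resting replicates, 1, 1 and 2 at 48 h and 2, 2 and 3 at 96 h. Its outer sites were called in 8 replicates each and its middle site in 1. The Fam83f chain on chromosome 15 (80524944 to 80536870) had 2, 1 and 3 sites in resting replicates, 2, 0 and 1 at 48 h and 3, 3 and 2 at 96 h. Resting and 96 h replicates overlapped in both.

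The largest gains from resting to 96 h were chosen by those same counts and are described only. A chain near Spns3, a predicted transporter of the spinster family, on chromosome 11 (72377846 to 72387637) had 0, 0 and 1 sites in resting replicates, 1, 1 and 1 at 48 h and 2, 3 and 3 at 96 h. This gain was 77.8 percentage points in the mean share of sites called. In 5 chains of 3 sites the gain was 66.7 points, a tie that the number of sites could not break. A chain near Sypl, a synaptophysin-like membrane protein, on chromosome 12 (33594991 to 33605336) had 0 in every resting replicate, 0, 0 and 1 at 48 h and 1, 2 and 3 at 96 h. A chain at the start of Myo1h, an unconventional myosin, on chromosome 5 (114759101 to 114765306) had 0 in every resting replicate, 1, 0 and 0 at 48 h and 0, 3 and 3 at 96 h. The chain at Pebp4, of the phosphatidylethanolamine-binding family, on chromosome 14 had 0 in every resting replicate, 0, 0 and 1 at 48 h and 1, 3 and 2 at 96 h. A chain 64870 bp from Erg, an ETS-family transcription factor, on chromosome 16 had 0 in every resting and 48 h replicate and 3, 1 and 2 at 96 h. The chain at Ctif, a factor of cap-dependent translation, had 0, 0 and 1 in resting replicates, 1, 0 and 2 at 48 h and 3, 2 and 2 at 96 h. Resting and 96 h replicates overlapped in the Myo1h chain. A choice by this difference favours chains whose groups do not overlap, and the share of such chains among all 231 is not given here.

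The chains with the largest losses had weaker sequence support. A 4-site chain on chromosome 13 (83204999 to 83214881), 433093 bp from Mef2c, had 2, 1 and 2 sites in resting replicates, 1, 0 and 1 at 48 h and 0, 0 and 1 at 96 h. It had a motif match at 1 of 4 sites. A 3-site chain on chromosome 17 (39983695 to 39985740) overlapped the annotated pseudogene AY036118 and had 1, 0 and 2 sites in resting replicates, 0, 2 and 0 at 48 h and 0 at 96 h. It had no motif match, and 53.1% of its 32-base words occurred once. The third was the 4-site chain on chromosome Y, with 0, 1 and 3 sites in resting replicates, 0 at 48 h and 1, 0 and 0 at 96 h. Resting and 96 h ranges met or overlapped in all 3.

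Other large chains varied in the same way. The 4-site chain over the start of Kctd11, an adaptor of a ubiquitin ligase, and Acap1 on chromosome 11 (69690433 to 69696884) had no site called in any resting or 48 h replicate and 1 in each 96 h replicate. The same site was called each time, and the other 3 were in pooled lists only. The 4-site chain at Vgll4, a cofactor of TEAD transcription factors, on chromosome 6 had 0, 0 and 1 sites in resting replicates, 1, 1 and 0 at 48 h and 0, 2 and 2 at 96 h. The 4-site chain 27014 bp from 1700057K13Rik on chromosome 1 had 0, 0 and 1, then 1, 0 and 0, then 1, 1 and 4. The 4-site chain 45512 bp from Fbxo11, a substrate receptor of a ubiquitin ligase, on chromosome 17 had 1 site called in resting replicate 3 and 1 in 96 h replicate 3. The chromosome Y chains of 8 and 7 sites had 0 to 2 sites called in any replicate.

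In all, 127 chains (55.0%) overlapped a protein-coding gene, 54 had a protein-coding start within their span and 56 lay wholly inside 1 gene. Of 22367 protein-coding genes, 147 (0.657%) overlapped a chain. Gene lists for this tissue gave 4 genes of 517 (0.774%). They were Bcl6 and Prdm1 of 25 B cell identity factors, Prkcb of 21 genes of the B cell receptor and its coreceptors, and Myc of 29 genes of activation and class switching. Lists of 20 genes of MHC and antigen processing, 136 of clustered families, 225 of the immunoglobulin and T cell receptor loci, 24 imprinted genes, 19 cohesin and CTCF genes and 18 T cell genes had 0 each. The chromosome 12 chain near the Igh constant genes overlapped no gene and so is not counted here.

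Bcl6, the repressor that directs germinal centre B cells, was the listed gene with most chain sites and overlapped 2 chains. The 4-site chain around its start (chromosome 16, 23982391 to 23991575) had 1, 1 and 3 sites in resting replicates, 2, 0 and 3 at 48 h and 1, 4 and 4 at 96 h. Its sites 1 to 3 were intronic, and site 4 lay in the promoter, 2493 bp from the start, and was called in 7 replicates. All 4 matches ran on the plus strand, opposite to the direction of transcription. The 3-site chain across its 3′ end (23953873 to 23967684) was present only in the pooled 96 h list, and 1 of its sites was called in 1 replicate, 96 h replicate 2.

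Prdm1 encodes Blimp-1, the repressor that drives plasma cell differentiation. Its chain (chromosome 10, 44174697 to 44180244) had 3 sites around the start and no motif match at any of them. Site 1 scored 9.45 log2 odds, just under the threshold of 10.1. No site was called in a resting or 48 h replicate, and 1 site was called in 96 h replicate 3. The pooled lists held 2 of the sites in resting cells, 0 at 48 h and 3 at 96 h. The study reported cohesin at CTCF-bound sites of this gene in mature B cells, so the missing match does not mean that CTCF is absent. It also reported less cohesin at 48 h at and upstream of the promoter, and an intronic site bound only after 96 h. In the chain, the intronic site was in the pooled 96 h list only and was called in no replicate. Whether these are the sites of the study was not tested. The Myc chain (chromosome 15, 61814843 to 61818788), at the growth-driving transcription factor, had a motif match only at its first site, which was called in resting replicate 1 and 96 h replicate 3. Its other sites, in the 5′ UTR, were present only in the pooled 96 h list at the 0.832 and 1.55 percentile of score. Prkcb encodes the protein kinase C that links the B cell receptor to NF-κB. Its chain (chromosome 7, 129603091 to 129614470) lay deep in the gene, 175958 bp from the nearest start, with 1, 0 and 1 sites in resting replicates, 1, 0 and 1 at 48 h and 2, 1 and 3 at 96 h, and these groups overlapped.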

How the data were processed

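RAD21 ChIP-seq peak lists of 9 replicates and 3 pooled samples were analysed. The authors aligned reads to mm9 with Bowtie 2, drew the same number of unique positions from every set and ran MACS 2 with input as control and an FDR of 0.05. Pooled lists came from merged replicates. The deposited score of each peak, whose statistic is not given in the sources used here, was used only by rank within a list. Peak lists hold no read depth, so list length (821 to 8579 peaks) limits what a replicate can show. The 9 input libraries entered only through the authors' peak calling.

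Named chains were the 10 with most sites (ties to the shorter span), 3 each by replicate support, gain and loss from resting cells to 96 h (ties to more sites, with chains still tied also named), and those over listed genes, up to 6 per list. One sequence was printed for some of them, from the best supported site outside UTRs, and those of the chromosome 12 chain were added after its values were seen. Members, lists and rules were chosen with earlier results of these data known. The 20-base motif was learned from 524 sites on odd-numbered autosomes with peaks in 6 or more replicates and searched on both strands within 100 bp of site centres. Its threshold of 10.1 log2 odds let 5% of windows 1 kb away pass. Genes came from the NCBIM37 (mm9) annotation. Code in Python 3.11.15 with numpy 2.4.6, scipy 1.17.1 and pysam 0.24.0 was tested on simulated data. Alternatives were other distances, list lengths and merging rules, and leaving out each replicate. Leaving out chromosome Y, and 48 h replicate 2 for scores between time points, was added after the data were seen.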

Additional observations from a re-analysis of the deposited data

Results flagged for a closer look

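The sites left out by the rule also formed chains. Among the 2127 sites found only in the pooled 48 h list, 39 (1.83%) lay in 10 chains of 3 or more among themselves, and all 39 had a peak in 48 h replicate 2. Over all 2127 sites, 85.2% had a peak of that replicate.

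The difference in score percentile between chain sites and other sites was -0.648 points in resting cells, -10.3 points at 48 h and 2.45 points at 96 h. An exact permutation test of F between time points gave F = 8.07 (p = 0.0214). Most chains took their shape from the pooled 96 h list of the same reads. This p-value therefore cannot separate time point from the choice of members. All 3 replicates at 48 h were below 0, 2 of 3 resting replicates were below 0 and 2 of 3 at 96 h were above 0. Without 48 h replicate 2, which has 19 chain sites, F was 4.65 (exact p = 0.0857), and without chromosome Y it was 8.99 (exact p = 0.0286). Single pairs of time points gave exact permutation p = 0.1 at lowest, the smallest that 3 replicates against 3 allow.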

How the results depend on the processing

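The 734 chain sites became 303 at 5 kb, 1712 at 20 kb, 181 with pooled lists of equal length, 388 with a stricter score and 335 with peaks supported by a replicate, and 444 to 734 with each replicate left out, the lowest without 96 h replicate 3. The counts called in all replicates of one time point and none of another moved as follows. For 96 h and not resting (32) they were 5 with replicate lists of equal length, 8 at 5 kb, 74 at 20 kb and 32 to 90 with each replicate left out, the highest without 96 h replicate 1. For resting and not 96 h (0) they were 3 with lists of equal length, 1 at 20 kb and 0 to 3 with a replicate left out, the highest without 96 h replicate 3. For 48 h and not resting (0) the range was 0 to 2. For resting and not 48 h (7) they were 1 with lists of equal length, 0 at 5 kb, 18 at 20 kb and 7 to 34, the highest without resting replicate 2 (15 without 48 h replicate 1 and 11 without resting replicate 1). For 96 h and not 48 h (44) they were 5 with lists of equal length, 11 at 5 kb, 113 at 20 kb and 44 to 123, the highest without 96 h replicate 1. For 48 h and not 96 h (0) the range was 0 to 2. With lists of equal length the mean shares of chain sites called were 6.77% in resting cells, 4.27% at 48 h and 6.72% at 96 h. The cause of these shifts was not tested, beyond fewer or more sites entering. The other 110 values were not counted as moved. Shares, differences and tests among them stayed on the same side or within the spread, while counts still changed. The 734 chain sites, for example, became 907 with 48 h-only peaks kept and 671 with sites within 500 bp merged. The difference in score percentile ranged from -3.87 to -1.44 with each replicate left out. The replicate numbers were not treated as pairs. Of 9 same-numbered pairs, 1 had a correlation of deviations over 0.1 (-0.0738 to 0.18), and other pairs ranged from -0.112 to 0.0695. These values cannot show whether same-numbered samples were handled together. With the replicate block the F of 1.86 for own chains had p = 0.444 (exact permutation). Of 27 alternatives for gene features and the motif, 7 moved beyond the 95% interval, the motif share to 78.9% at 5 kb. Replicate lists of 821 to 8579 peaks limit every count of sites per replicate.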

Other observations

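The next largest gains from resting cells to 96 h after those described above were 58.3 percentage points in the mean share of sites called, in 2 chains of 4 sites that were named after their values were seen. One, on chromosome 11 (113026466 to 113037832), lay 386107 bp from Sox9 and had no site called in any resting or 48 h replicate and 2, 2 and 3 sites at 96 h. The other, on chromosome 17 (45855283 to 45872669), lay 40122 bp from Tmem63b and had 0, 0 and 1 sites in resting replicates, 0 at 48 h and 2, 3 and 3 at 96 h.

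Some chains lay close to each other. Besides the 2 chains at Bcl6, which were 14706 bp apart, pairs of chains within 100 kb were found on chromosome 2 at Tmem189 and Ube2v1 (63676 bp apart), on chromosome 5 at Tmem120b and Rhof (47020 bp), on chromosome 6 near Cd69, an early activation marker of lymphocytes (58114 bp), on chromosome 8 between Jund, an AP-1 subunit, and a 4-site chain over Ifi30, Mpv17l2, Pik3r2 and Rab3a (51171 bp), and on chromosome 11 at Copz2 and Cdk5rap3 (42681 bp) and at Ptrf and Atp6v0a1 (94321 bp). The 3 chains of chromosome Y, in repeated sequence, lay 60626 and 15639 bp apart. These genes were named after their values were seen.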
